A study of Mus musculus with 12 samples.

Results

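The 10 genes described here govern the entry of glucose into glycolysis up to its main control point: the hexokinases Hk1 and Hk2, the isomerase Gpi1, the phosphofructokinases Pfkl, Pfkm and Pfkp, the enzymes Pfkfb2, Pfkfb3 and Pfkfb4, and Tigar. They were chosen by name, and each matched 1 of the 28948 Ensembl gene identifiers measured. RNA was sequenced from 3T3-L1 adipocytes in 4 groups of 3 libraries. These cells derive from a mouse embryonic fibroblast line that becomes fat in culture. The groups carried an empty vector, a construct for constitutive Foxp1 overexpression, a scrambled short hairpin RNA, or a short hairpin RNA against Foxp1, a forkhead transcription factor. All 4 groups had the same differentiation: 10 µM troglitazone with 5 µg/ml insulin, 1 µM dexamethasone and 0.5 mM isobutylmethylxanthine, then insulin alone from day 4 and growth medium from day 6. The promoter and species of the overexpression construct, the number of hairpin sequences, the day of harvest and whether replicates were separate cultures are not given in the sources used here. P-values therefore measure the spread between these libraries, which may be technical.

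As background, glucose that enters a cell is phosphorylated by hexokinase, which traps it, and Gpi1 turns the product into fructose 6-phosphate. Phosphofructokinase 1, a tetramer of Pfkl, Pfkm and Pfkp subunits, then commits the sugar to glycolysis. Its strongest activator is fructose 2,6-bisphosphate, which the bifunctional PFKFB enzymes both make and break down and which Tigar, a phosphatase first described as a p53 target, degrades. In fat cells insulin raises glucose uptake and Hk2, and the carbon feeds the glycerol backbone and fatty acids of triglyceride as well as lactate.

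Reads that fell in genes numbered 35196318 to 38389454 per library, and each of the 10 genes was covered by 83 to 70081 reads per library. Levels are in RPKM, which corrects for gene length and library size, so different genes can be compared within a library. Foxp1 itself followed the labels, at 1.83, 1.76 and 1.82 RPKM in empty vector libraries, 5.78, 7.16 and 6.75 with overexpression, 2.24, 2.20 and 2.11 with the scrambled hairpin and 1.11, 1.14 and 1.08 with the hairpin against Foxp1. Overexpression replicate 3 stood apart. Its mitochondrial transcripts took 13.1% of reads, beside 9.99% and 9.65% in replicates 1 and 2, and its part in the results was not tested beyond leaving it out. The cells expressed the fat cell markers, with 10 of 11 above 1 RPKM (Lep, at most 0.454 RPKM in any library, did not). By the test described below, all 10 tested fell with overexpression, where 20.3% of all genes tested did. With knockdown 6 rose and 3 fell, where 18.7% of all genes rose and 31.0% fell. The summed level of the 11 was 9507 to 9722 RPKM with the empty vector, 3761 to 4051 with overexpression, 6932 to 7174 with the scrambled hairpin and 9573 to 10263 with knockdown. Markers of undifferentiated preadipocytes summed to 96.0 to 107.3, 103.3 to 107.2, 115.9 to 133.1 and 105.3 to 118.4 RPKM in the same order. These sums hide moves both ways among the 6 tested. With overexpression 3 rose (Dlk1, Sox9 and Pdgfrb) and 2 fell (Ly6a and Pdgfra), where 31.0% of all genes rose and 20.3% fell. With knockdown 1 rose and 2 fell, where 18.7% of all genes rose and 31.0% fell. Of 11 skeletal muscle markers 8 were in the matrix and 2 exceeded 1 RPKM (Acta1 and Des), with sums of 24.3 to 25.1, 44.6 to 50.7, 10.5 to 11.9 and 9.53 to 10.5 RPKM. Of 5 macrophage markers 1 did (Cd68), with sums of 2.95 to 4.26, 3.16 to 3.93, 4.36 to 5.95 and 3.52 to 4.51 RPKM, and of 4 endothelial markers 0 did, with sums of 0.187 to 0.248, 0.387 to 0.531, 0.273 to 0.311 and 0.254 to 0.306 RPKM. The part of these shifts in the results below was not tested, and in such bulk samples fewer cells of a type and less RNA per cell cannot be told apart.

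Differences were tested with limma on log2(RPKM + 1) across the 11245 genes that reached 1 RPKM in 3 or more libraries, and a gene was called where its p, adjusted by Benjamini-Hochberg, was under 0.05. Of the 10 genes, 9 passed this filter, each with more than 1 RPKM in every library, and Pfkfb2 did not. With overexpression 5 rose (Hk1, Hk2, Gpi1, Pfkl and Pfkp) and 2 fell (Pfkfb3 and Tigar), where 31.0% of all genes tested rose, 20.3% fell and 51.4% changed either way. With knockdown 2 rose (Pfkl and Pfkfb3) and 5 fell (Hk2, Gpi1, Pfkm, Pfkp and Pfkfb4), where 18.7% of all genes rose, 31.0% fell and 49.7% changed either way. The median log2 fold change of the 9 genes was 0.42 with overexpression and -0.24 with knockdown, beside 0.04 and -0.04 over all genes tested. The balance of rises and falls over all genes depends on the scaling. With overexpression 60.4% of calls were rises, or 48.6% with libraries rescaled to TPM and 51.4% with median-ratio scaling. With knockdown 37.6% were rises, or 30.2% with TPM and 49.9% with median-ratio scaling. Of the 9 genes 4 were called in opposite directions in the comparisons (Hk2, Gpi1 and Pfkp up with overexpression and down with knockdown, Pfkfb3 the reverse), where 18.1% of all genes were. Pfkl was called up in both, where 10.5% of all genes moved the same way in both. These comparisons share no library.

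**Figure D1:**
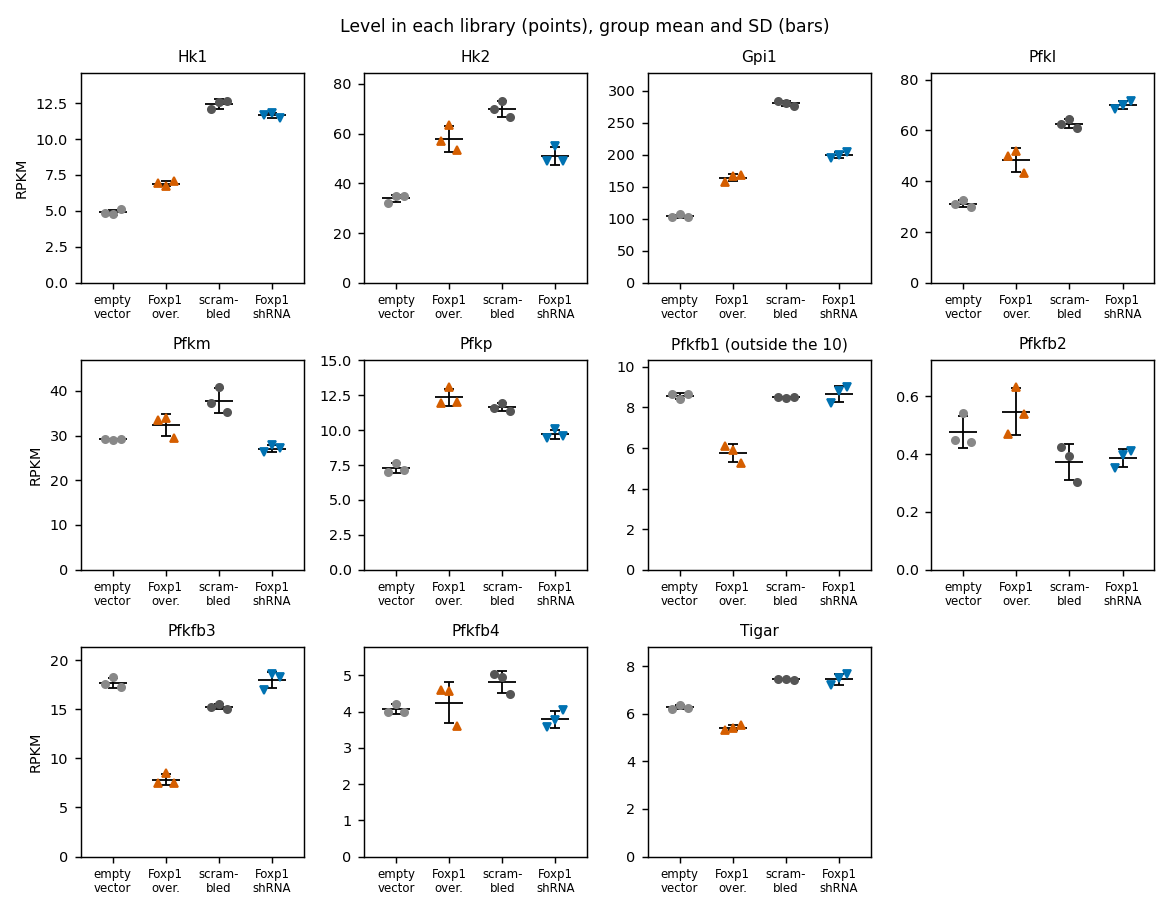
RPKM of each of the 10 genes, and of the related gene Pfkfb1, in each of 12 libraries (points), with group means and SD (n = 3, bars); every vertical axis starts at 0. Hk2 went from 34.0 to 57.9 RPKM with overexpression and from 70.0 to 51.1 with knockdown, while Pfkfb3 went from 17.7 to 7.82 and from 15.3 to 17.9.

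Levels differed widely among the 10 genes. Gpi1 was the highest in every group, with means of 103.7, 164 and 280.3 RPKM with the empty vector, overexpression and the scrambled hairpin and 199.7 with knockdown. Pfkfb2 was the lowest in every group, between 0.302 and 0.630 RPKM in the 12 libraries. With the empty vector the order was Gpi1, Hk2, Pfkl, Pfkm, Pfkfb3, Pfkp, Tigar, Hk1, Pfkfb4 and Pfkfb2, and Hk2 and Pfkl were the only neighbours whose libraries overlapped. In the other groups no neighbours in the order overlapped. Pfkfb3 exceeded Pfkp with the empty vector, the scrambled hairpin and knockdown, while Pfkp exceeded it with overexpression. With knockdown Pfkl exceeded Hk2, at 70.1 and 51.1 RPKM.

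Hk2 and Pfkfb3, the genes of the 10 with the largest rise and fall under overexpression, are shown with the bases before their start sites. One stretch of the same kind is shown for Pfkm, as a further example. RefSeq start sites on GRCm38.p6 were matched for 10 of 10 genes, giving 17 windows of 250 bases before the start. In capitals are matches to the hypoxia response core ACGTG or its reverse complement CACGT, and the E-box CACGTG, which holds that core on both strands. Hk2's window lies at chr6:82774455-82774704, minus strand, and overlaps no annotated exon. Its matches begin 226 and 52 bases before the start site.
Hk2: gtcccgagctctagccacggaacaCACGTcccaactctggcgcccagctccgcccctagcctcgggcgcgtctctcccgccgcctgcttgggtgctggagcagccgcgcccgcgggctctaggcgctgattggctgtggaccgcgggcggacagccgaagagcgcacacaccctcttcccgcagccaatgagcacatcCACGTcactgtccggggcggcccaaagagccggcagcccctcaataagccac
Pfkfb3 has 2 start sites in the table, and the match before the upstream one, at chr2:11553975-11553999, and the one before the downstream one, at chr2:11502128-11502153, both on the minus strand, begin 60 and 53 bases before their starts. Of the 250 bases, 148 and 11 overlap exons of other annotated transcripts.
Pfkfb3, upstream start: ccgcgccgtgACGTGccaagctgtg
Pfkfb3, downstream start: cccttctctcCACGTGaaagggggct
Pfkm's first window holds an E-box 136 bases before the start, at chr15:98092443-98092468, plus strand.
Pfkm: ttaagtatgcCACGTGaagtaagtaa
Of the 17 windows 7 held ACGTG on either strand, from 4 of the 10 genes, where 16.6% of 32851 promoter windows and 18.5% of 27025 genes did. The 4 genes were Hk2, Pfkm, Pfkfb3 and Pfkfb2, the last not shown and too low to be tested in the main fit. Gpi1, Pfkp and Pfkfb4, which fell with knockdown as Hk2 and Pfkm did, held no ACGTG. The G form of the core, GCGTG, not marked here, was in 7 of the 10 genes and in 30.9% of all genes. Pfkp and Pfkfb4 held that form and Gpi1 did not. The 10 genes had 1 to 4 windows each, so the windows are not independent. The E-box was in 3 of the 17 windows, from 3 of the 10 genes, and in 6.02% of all windows and 6.86% of all genes. The forkhead core GTAAACA, searched on both strands, was in 0 of the 17 windows and in 3.17% of all windows. A match describes letters only, and windows this short leave out more distant sequence.

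Hexokinase 1 (Hk1, ENSMUSG00000037012), the widely expressed form, lies at chr10:62268855-62379908, minus strand. It measured 4.89, 4.76 and 5.10 RPKM in the empty vector group and 6.95, 6.71 and 7.05 under overexpression. The groups did not overlap, which was true of 57.5% of all genes tested, and the ratio of means was 1.40 (log2 fold change 0.42, SE 0.036, limma adjusted p = 9.01e-07). With the scrambled hairpin it measured 12.1, 12.6 and 12.7 RPKM, and with knockdown 11.7, 11.8 and 11.5. These groups did not overlap either, as for 59.6% of all genes, but the difference did not pass (log2 fold change -0.09, 95% interval -0.16 to -0.01, limma adjusted p = 0.0606). It passed with libraries rescaled to TPM (limma adjusted p = 0.0249) and with a pseudocount of 5 (0.0416). Under the other settings tried it did not, with limma adjusted p of 0.0547 to 0.166 when 1 library was left out.

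Hexokinase 2 (Hk2, ENSMUSG00000000628, chr6:82725025-82774454, minus strand) is the insulin-regulated form of muscle and fat and exceeded Hk1 in all 4 groups. It rose with overexpression, from 32.2, 34.9 and 34.7 to 56.9, 63.4 and 53.3 RPKM, 1.70 times the control mean (log2 fold change 0.75, SE 0.067, limma adjusted p = 1.3e-06). It fell with knockdown, from 70.0, 73.3 and 66.8 to 49.0, 55.2 and 49.1 RPKM, a ratio of 0.730 (-0.45, limma adjusted p = 1.62e-04). In both comparisons every treated library lay beyond every control library. The knockdown libraries nevertheless stayed above all 3 empty vector libraries. Hk3 and Hkdc1, other hexokinases, had at most 1 and 6 reads in any library.

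Glucose-6-phosphate isomerase (Gpi1, ENSMUSG00000036427, chr7:34201330-34230336, minus strand), which links the hexokinase and phosphofructokinase steps, moved with Foxp1 in both experiments. Its libraries measured 102.1, 106.9 and 102.1 RPKM in the empty vector group and 157, 167 and 168 under overexpression (ratio of means 1.58, log2 fold change 0.66, SE 0.038, limma adjusted p = 2.38e-08). They measured 285, 280.3 and 276 RPKM with the scrambled hairpin and 196, 199 and 204 with knockdown (ratio 0.712, -0.49, limma adjusted p = 1.34e-06). The groups were far apart within each experiment. Yet every knockdown library exceeded every overexpression library, since the control groups themselves differed by a ratio of 2.70. Of its 6452 exon bases 741 are shared with an annotated long non-coding RNA on the opposite strand (Gm26762), and the strand setting of the counting is not given.

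The phosphofructokinase subunits did not move as one. Pfkl, the liver-type subunit (ENSMUSG00000020277, chr10:77986947-78010083, minus strand), rose with overexpression from 31.0, 32.6 and 29.8 to 49.99, 51.9 and 43.1 RPKM, the lowest being replicate 3 (ratio of means 1.55, log2 fold change 0.61, limma adjusted p = 3.22e-06). With knockdown it went from 62.4, 64.5 and 61.0 to 68.6, 69.9 and 71.8 RPKM and narrowly passed upward (ratio 1.12, 0.16, limma adjusted p = 0.0437). That call ended without any 1 of the 6 libraries compared (0.0556 to 0.123), with no filter on low values (0.11) and with TPM (0.192).

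Pfkm, the muscle-type subunit (ENSMUSG00000033065, chr15:98092589-98132451, plus strand), showed the opposite balance. It measured 29.2, 28.9 and 29.3 RPKM in the empty vector group and 33.6, 34.0 and 29.5 under overexpression, which did not pass (log2 fold change 0.14, 95% interval 0.01 to 0.27, limma adjusted p = 0.0596). The replicate that lay near the controls was again replicate 3, and without it the rise passed (0.21, limma adjusted p = 0.00471). It also passed with a replicate block (0.0396) and with libraries scaled to reads outside the mitochondrial genome (0.0126), a setting added after the data were seen. Under the other settings tried the rise did not pass, with limma adjusted p up to 0.196 when 1 library was left out. With knockdown Pfkm fell from 37.2, 40.8 and 35.3 to 26.2, 27.9 and 27.2 RPKM (ratio of means 0.718, -0.46, SE 0.059, limma adjusted p = 5.2e-05), below every library of the other 3 groups. Of its 3340 exon bases 341 are shared with Gm26513 on the same strand, which reached up to 0.737 RPKM, and 18 with Senp1 on the opposite strand. Of the 8 skeletal muscle markers in the matrix 6 did not reach 1 RPKM in any library, while Acta1 and Des did. Acta1 rose with overexpression (log2 fold change 1.54) and with knockdown (0.39), and Des fell in both (-0.42 and -0.23).

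Pfkp, the platelet-type subunit (ENSMUSG00000021196, chr13:6579768-6648777, minus strand), was the least abundant of the 3 per length. That order rests on exon lengths of 13401 bases for Pfkp and 3340 for Pfkm. In reads, Pfkp had 5897 to 6432 per library with overexpression against 3625 to 4168 for Pfkm. Pfkp rose with overexpression from 7.02, 7.65 and 7.17 to 11.9, 13.1 and 12.1 RPKM (ratio of means 1.70, log2 fold change 0.69, limma adjusted p = 6.65e-08). It fell with knockdown from 11.6, 11.98 and 11.4 to 9.41, 10.1 and 9.60 RPKM (ratio 0.832, -0.24, limma adjusted p = 7.58e-04). The direction thus followed Foxp1 in both experiments, without overlap. Of its 13401 exon bases 748 are shared with Pitrm1 on the opposite strand, which reached up to 30.05 RPKM.

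In sum the 3 subunits measured 67.6 ± 1.46 RPKM in the empty vector group and 93.0 ± 7.49 under overexpression (SD, n = 3; ratio 1.38, two-sided exact permutation p = 0.1, the smallest possible). With the scrambled hairpin and knockdown the sums were 112.1 ± 4.84 and 106.9 ± 2.33 RPKM (ratio 0.954, exact permutation p = 0.3), and the libraries overlapped. Within that sum the makeup moved. Pfkl went from 46.1% ± 1.09 to 51.9% ± 0.869 of the subunit RPKM with overexpression and from 55.9% ± 0.847 to 65.6% ± 0.682 with knockdown. Pfkm went from 43.2% ± 1.23 to 34.8% ± 0.434 and from 33.7% ± 1.03 to 25.4% ± 0.439. Pfkp gained with overexpression (10.8% ± 0.31 to 13.3% ± 0.883) and lost with knockdown (10.4% ± 0.179 to 9.07% ± 0.247). Each of these 6 differences separated the groups without overlap, at exact permutation p = 0.1, the smallest 3 against 3 libraries allow. The differences are not independent, since within a comparison a lower share of one subunit raises that of others. Shares do not depend on the scaling of libraries, but their size depends on the exon lengths used. Counted in reads, the Pfkl share differed by 2.46 points in place of 5.83 with overexpression and by 8.25 in place of 9.63 with knockdown. The Pfkm share differed by -6.06 in place of -8.37 points and by -4.83 in place of -8.30, and the Pfkp share by 3.598 in place of 2.54 and by -3.42 in place of -1.33. All 6 differences had the same sign on both scales. The control groups differed in the same directions, by 9.86 points for Pfkl and -9.48 for Pfkm (scrambled hairpin minus empty vector). These shares did not overlap either (exact permutation p = 0.1).

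The PFKFB family showed the largest single response of the 10 genes with overexpression. Pfkfb3 (ENSMUSG00000026773, chr2:11471433-11554077, minus strand), the form with the highest kinase over phosphatase activity, fell from 17.5, 18.2 and 17.2 to 7.52, 8.46 and 7.47 RPKM (ratio of means 0.443, log2 fold change -1.08, SE 0.048, limma adjusted p = 2.39e-09). It moved against Hk2, Gpi1, Pfkl and Pfkp there. With knockdown it rose from 15.2, 15.5 and 15.0 to 17.0, 18.5 and 18.3 RPKM (ratio 1.18, 0.22, limma adjusted p = 0.00252). In both experiments the groups were separate.

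Pfkfb4 (ENSMUSG00000025648, chr9:108991778-109032228, plus strand), a hypoxia-responsive form, measured 3.99, 4.22 and 3.99 RPKM in the empty vector group and 4.58, 4.56 and 3.6004 under overexpression. Replicate 3 lay below all controls and the other replicates above them, so the groups overlapped and the test did not pass (log2 fold change 0.04, 95% interval -0.11 to 0.20, limma adjusted p = 0.629). Without replicate 3 the difference was 0.14 with limma adjusted p = 0.0476. With knockdown Pfkfb4 fell from 5.03, 4.95 and 4.48 to 3.57, 3.77 and 4.04 RPKM (ratio of means 0.787, -0.28, limma adjusted p = 0.00605).

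Pfkfb2 (ENSMUSG00000026409, chr1:130689182-130729253, minus strand), best known from heart, measured 0.447, 0.541 and 0.442 RPKM in empty vector libraries, 0.471, 0.630 and 0.539 with overexpression, 0.423, 0.393 and 0.302 with the scrambled hairpin and 0.353, 0.398 and 0.411 with knockdown, on 83 to 168 reads per library. The groups compared overlapped. With no filter on low values neither comparison passed (log2 fold change 0.07, limma adjusted p = 0.413, and 0.02, limma adjusted p = 0.964). Of its 7254 exon bases 1262 are shared with the annotated gene Gm29427 on the same strand.

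Pfkfb1, a family member known from liver and muscle that is not among the 10 genes, was the second most abundant form, at 8.57 ± 0.149 RPKM in the empty vector group and 5.75 ± 0.444 under overexpression (SD, n = 3; log2 fold change -0.51, limma adjusted p = 2.35e-06). It was at 8.5004 ± 0.0248 and 8.67 ± 0.399 RPKM with the scrambled hairpin and knockdown (0.03, 95% interval -0.08 to 0.13, limma adjusted p = 0.686). The summed RPKM of the 4 PFKFB genes was 30.8 ± 0.546 with the empty vector and 18.4 ± 1.36 with overexpression, a ratio of 0.596 (exact permutation p = 0.1, the smallest possible). It was 28.95 ± 0.556 with the scrambled hairpin and 30.8 ± 1.44 with knockdown (ratio 1.06, exact permutation p = 0.3). Pfkfb3 held 57.4% ± 0.647 of that sum with the empty vector and 42.6% ± 2.11 with overexpression, and 52.7% ± 0.511 and 58.3% ± 0.598 in the hairpin groups. The Pfkfb4 share went the other way, from 13.2% ± 0.211 to 23.1% ± 1.6 and from 16.6% ± 0.726 to 12.3% ± 0.387. Shares within a family are not independent, since a lower share of one gene raises that of others. With overexpression the level of Pfkfb4 itself did not pass, at means of 4.07 and 4.25 RPKM, while Pfkfb3 and Pfkfb1 fell. The 2 shares each separated treated from control libraries at exact permutation p = 0.1.

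**Figure D2:**
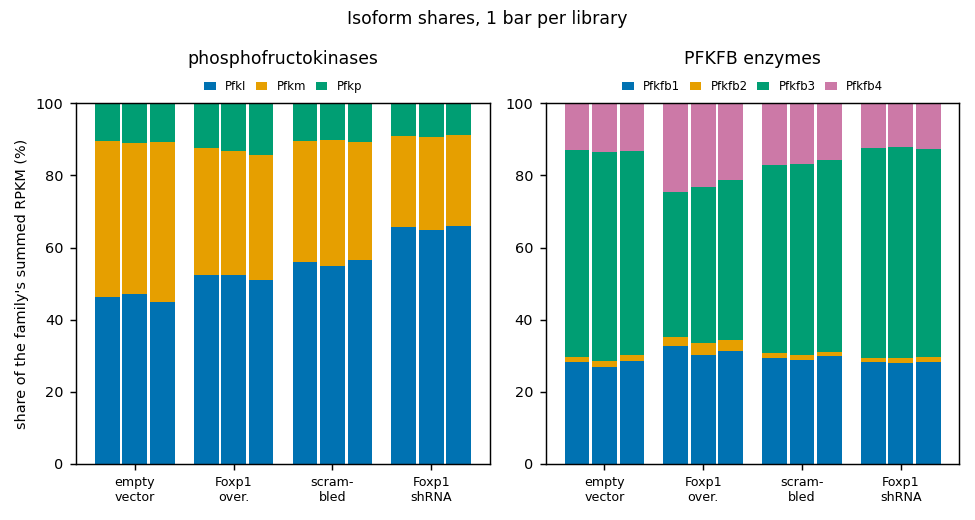
Share (%, vertical axis) of each gene in the summed RPKM of the phosphofructokinase and PFKFB families, with 1 stacked bar per library and the libraries grouped by construct. The Pfkl share is higher and the Pfkm share lower in both treated groups than in their controls. The same holds for the scrambled hairpin beside the empty vector, both of them controls. The Pfkfb3 share is 57.4% with the empty vector and 42.6% with overexpression.

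Tigar (ENSMUSG00000038028, chr6:127085116-127109557, minus strand), which lowers fructose 2,6-bisphosphate, changed least among the genes called with overexpression. It fell with overexpression from 6.20, 6.38 and 6.24 to 5.33, 5.39 and 5.53 RPKM, without overlap (ratio of means 0.863, log2 fold change -0.18, SE 0.033, limma adjusted p = 5.95e-04). With the scrambled hairpin and knockdown it measured 7.44, 7.47 and 7.42 RPKM and 7.20, 7.4998 and 7.65, with no detectable difference (0.00, 95% interval -0.07 to 0.07, limma adjusted p = 0.979). The p53 gene Trp53 rose with knockdown, from 17.7 to 24.7 RPKM in the mean (log2 fold change 0.46, limma adjusted p = 1.28e-04). With overexpression, where Tigar fell, Trp53 did not pass (0.07, limma adjusted p = 0.399). A part of p53 in the Tigar levels was not tested.

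**Figure D3:**
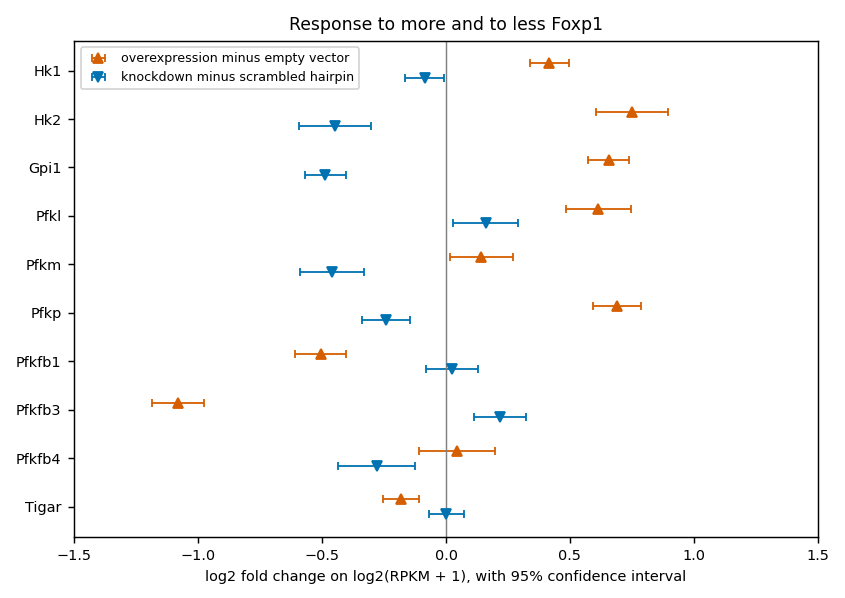
Log2 fold change on log2(RPKM + 1) with its 95% confidence interval (limma, horizontal axis) for overexpression minus empty vector and knockdown minus scrambled hairpin, for the 9 tested genes and the related gene Pfkfb1. Hk2, Gpi1 and Pfkp lie on opposite sides of 0 in one sense and Pfkfb3 in the other, while Pfkl lies above 0 in both.

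The difference between the responses was tested directly, as overexpression minus empty vector against knockdown minus scrambled hairpin. Of the 9 genes 7 had the higher response with overexpression and 2 the lower, where 34.6% and 20.3% of all genes did and 54.9% differed either way. The largest differences were those of Pfkfb3 (-1.30, SE 0.068, limma adjusted p = 1.35e-08), Hk2 (1.197, SE 0.094, limma adjusted p = 4.73e-07) and Gpi1 (1.14, SE 0.054, limma adjusted p = 5.38e-09). Pfkp (0.93), Pfkm (0.60), Hk1 (0.50), Pfkl (0.46) and Pfkfb4 (0.32) followed, and Tigar was at -0.18 (limma adjusted p = 0.00549). So Pfkl, called up in both experiments, still rose more with overexpression, and Hk1 differed between the experiments although its knockdown response alone did not pass. Without overexpression replicate 3 the same 9 differences passed, from -1.27 for Pfkfb3 to 1.25 for Hk2.

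The control groups themselves differed for the 9 tested genes. All 9 separated the control groups without overlap, as did 78.9% of all genes tested. With the scrambled hairpin 8 were higher than with the empty vector and 1 was lower, where 44.8% and 27.0% of all genes were and 71.8% differed either way. The ratio of means was 2.70 for Gpi1, 2.53 for Hk1, 2.06 for Hk2, 2.01 for Pfkl, 1.60 for Pfkp and 1.30 for Pfkm. It was 1.19 for Tigar and 1.18 for Pfkfb4, and Pfkfb3 was lower at 0.864. This comparison uses the same control libraries as the others, and vector, hairpin and experiment cannot be told apart in it. The call of Pfkfb4 ended without empty vector replicate 1 or 3 or scrambled replicate 1 or 2 (limma adjusted p = 0.0657 to 0.082), with no filter (0.0654), and with median-ratio scaling (0.128), quantile normalization (0.124) or voom (0.0951), and that of Pfkfb3 with TPM (0.0936).

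Other genes of the pathway were taken from lists by their place in it. Of the genes from aldolase to lactate dehydrogenase, 11 of 12 were tested. With overexpression 11 rose and 0 fell, where 31.0% of all genes tested rose and 20.3% fell. With knockdown 1 rose and 3 fell, where 18.7% of all genes rose and 31.0% fell. The median log2 fold change was 0.76 with overexpression and -0.06 with knockdown, beside 0.04 and -0.04 over all genes tested. The 4 calls of 11 with knockdown stand beside 49.7% of all genes called. Neuronal enolase Eno2 (-0.76, limma adjusted p = 3.16e-06), Ldhb (-0.25) and Gapdh (-0.30) fell and Ldha (0.16) rose. Whether their responses differ from those of the 9 upstream genes was not tested.

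Genes of glucose entry had 4 of 5 tested, with 3 up and 1 down with overexpression and 0 up and 3 down with knockdown. Over all genes tested 31.0% rose and 20.3% fell with overexpression, and 18.7% rose and 31.0% fell with knockdown. The basal glucose transporter Slc2a1 rose with overexpression (0.80, limma adjusted p = 7.72e-08) and did not pass with knockdown (-0.06, limma adjusted p = 0.3996). The insulin-responsive transporter Slc2a4 rose by 0.34 with overexpression and fell by 0.32 with knockdown, and Txnip, which restrains glucose uptake, went by 0.27 and -0.29. Slc2a8 was lower in both (-0.19 and -0.36).

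Of 12 other genes at the hexose phosphate stage 7 were tested, with 3 up and 3 down in overexpression and 1 up and 2 down in knockdown. The shares of all genes up and down were 31.0% and 20.3% in overexpression and 18.7% and 31.0% in knockdown. The phosphoglucomutase genes Pgm1 and Pgm2, which connect glucose 6-phosphate with glycogen, rose with overexpression (0.33 and 0.38). Pgm2 fell with knockdown (-0.46). Ketohexokinase (Khk), which phosphorylates fructose, fell in both (-0.11 with overexpression and -0.46 with knockdown), and Adpgk, which phosphorylates glucose with ADP, rose in both (0.18 and 0.12, limma adjusted p = 0.00342 and 0.0287). The fructose bisphosphatases Fbp1 and Fbp2, which reverse the phosphofructokinase step, were too low to test, with group means of at most 0.073 RPKM.

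Of 14 regulators and docking partners 13 were tested, with 6 up and 3 down in overexpression and 2 up and 2 down in knockdown. Among all genes tested 31.0% were up and 20.3% down in overexpression, and 18.7% were up and 31.0% down in knockdown. Myc, a transcription factor that drives glycolytic genes, rose in both (0.75 and 0.44). Of the subunits of AMP-activated kinase, which phosphorylates PFKFB enzymes, Prkaa1 fell with overexpression (-0.65) and Prkab2 fell in both (-0.56 and -0.43), while Prkab1 (0.11, limma adjusted p = 0.0351) and Prkag1 (0.10, limma adjusted p = 0.042) rose with overexpression. The latter pair was named after its values were seen. Vdac2, a mitochondrial outer membrane channel of the family that binds hexokinase, rose with overexpression (0.34). Akt2, the insulin-activated kinase of fat cells, fell in both (-0.26 and -0.14).

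**Figure D4:**
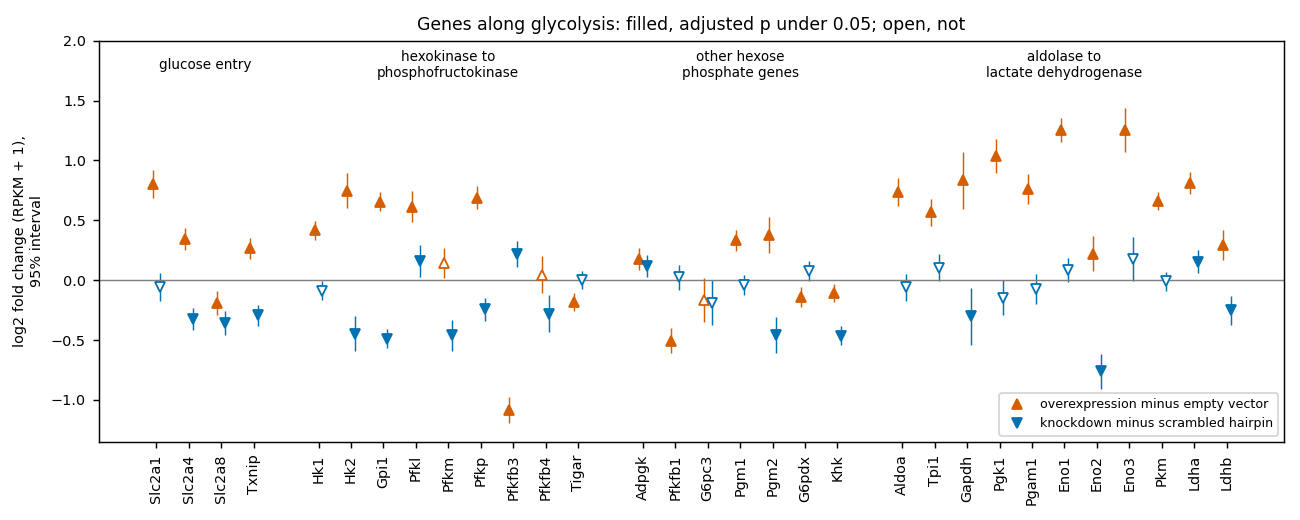
Log2 fold change on log2(RPKM + 1) with 95% confidence interval (vertical axis) for the tested genes of glucose entry, the 9 tested genes of hexokinase to phosphofructokinase control, other hexose phosphate genes and the steps from aldolase to lactate dehydrogenase; filled symbols passed limma at adjusted p under 0.05. With overexpression all 11 genes from aldolase on passed above 0, where 31.0% of all genes tested did. Eno2 among them was at means of only 0.262 and 0.473 RPKM in that comparison. With knockdown 4 of the 11 passed, where 49.7% of all genes did.

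Genes whose levels followed those of Hk2, Pfkp, Pfkfb3 and Tigar most closely were looked up by Pearson correlation of log2(RPKM + 1) over the 12 libraries, among 6660 tested genes with a mean of at least 5 RPKM. The points share 4 group means and the library scaling, so these values are a description. Hk2 was most like the amino acid transporter Slc1a4 (r = 0.991), Mast3 (0.988) and the translation factor Eif4b (0.986), whose deviations from the group means also correlated with those of Hk2 at 0.75, 0.70 and 0.83. For Pfkp the closest were Gmip (0.991), Il15ra (0.989) and Ap1g2 (0.986), with deviations at 0.69, 0.57 and 0.61. Pfkfb3 was closest to stomatin (Stom, 0.995), Rad51d (0.994) and Tex2 (0.989), with deviations at 0.68, 0.44 and 0.49. Stom went from 62.0 to 34.5 RPKM with overexpression and from 57.6 to 62.2 with knockdown in the mean. Tigar was closest to 1700017B05Rik (0.994), the serine synthesis enzyme Psat1 (0.991) and Dhrs3 (0.990). There the deviations correlated at 0.52, -0.18 and 0.34, so the likeness of Tigar and Psat1 lay in the group means alone.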

How the data were processed

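The authors deposited a matrix of RPKM per gene and library, with Ensembl identifiers; the deposited file's name gives release 98. Per the submitters' processing notes, HISAT2 2.1.0 and featureCounts of Subread 1.5.3 were used on mm10; settings are not given in the sources used here. The deposited RPKM values were divided by 1000 and were multiplied back here. Value times exon length (GENCODE M21, GRCm38, 28896 of 28948 identifiers matched) was a whole number of reads, within 0.05, for 98.83% to 98.93% of the nonzero values, depending on the library. Depths and the voom alternative rest on these reads.

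The fit used limma 3.58.1 (R 4.3.3; lmFit, then eBayes with a variance trend) on log2(RPKM + 1) of the 11245 genes that reached 1 RPKM in 3 or more of 12 libraries, with the 4 groups in one model. Such fold changes understate those of low genes. Intervals are limma's 95% intervals, unadjusted. Shares and sums of families were compared by two-sided exact permutation tests, 3 against 3 libraries. The fit was tested on simulated data. Members and lists were chosen with earlier results of these data known. Named were all 10 genes, Foxp1, up to 4 called genes per list and comparison by smallest adjusted p (not every one is given, and Fbp1, Fbp2 and marker genes were named after their values were seen), and the 3 genes most like Hk2, Pfkp, Pfkfb3 and Tigar. The G form of the hypoxia core, GCGTG, was searched too and was in 9 of 17 windows (28.2% of all windows). One gene planned for a list, and the hexokinase shares and sums, are not reported here. Figures used Python 3.11.15 and matplotlib 3.10.9. Alternatives are given in the closing section.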

Additional observations from a re-analysis of the deposited data

How the results depend on the processing

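The number of genes called stayed within 1.5 times its value in 77 of 77 recomputed counts, and so did the number of the 9 tested genes called (77 of 77), under other pseudocounts, filters and scalings, without the variance trend, with voom, with only the libraries compared and each library left out. With so few genes the latter count could not rise past 1.5 times its value, so only a fall could have broken that limit. Of 843 recomputed fold changes of single genes, 806 kept their direction and side of the threshold. Signs reversed only for values near 0: Pfkfb4 in overexpression with quantile normalization (-0.00992) and without replicate 1 (range with 1 library left out -0.00308 to 0.136), Tigar in knockdown with TPM (-0.0299) and without scrambled replicate 3 (-7.36e-04) or knockdown replicate 2 (-0.00301) or 3 (range -0.0159 to 0.0227), and Pfkfb1 with TPM in knockdown (-0.00635) and between the controls (0.0603). The share of Pfkfb2 in knockdown reversed without scrambled replicate 1 (range -0.137 to 0.053 points). Of the shares, 10 differences moved by more than the replicate SD when counted in reads: all 9 of the phosphofructokinases, such as Pfkl in overexpression (2.46 in place of 5.83 points), and Pfkfb2 in overexpression (1.91 in place of 1.43). Reads are not divided by exon length. Between the controls the ratio of summed RPKM was 1.75 with TPM and 1.54 with median-ratio scaling for phosphofructokinases (1.66 as deposited) and 0.994 and 0.872 for PFKFB enzymes (0.941); the cause was not tested. Replicate numbers did not pair the libraries: deviations of same-numbered libraries correlated at -0.0727 to 0.118, and not every library correlated best with its own number. With a replicate block 8 of the 9 genes were called in overexpression in place of 7, Pfkm being added (limma adjusted p = 0.0396), and 7 in knockdown as before. Rescaling to reads outside the mitochondrial genome was added after the data were seen.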
